A study of Mus musculus with 16 samples.

Results

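The genes described here encode the proteins of the core spliceosome, and they were found by symbol: protein-coding mouse genes whose names begin with Snrp, Snrnp, Sf3a, Sf3b, Prpf or U2af, or are Lsm2 to Lsm8, with a mean of at least 10 raw counts per library. This gave 51 genes of the 46078 in the count table, and all 51 passed the filter on low counts that left 15075 genes to be tested. Poly(A) RNA-seq was made from whole livers of male C56B6/J mice (spelled so in the labels, C57BL6/J in the study's methods), which began their diets at 8 weeks of age and stayed on them for 16 weeks. The 4 groups were control diet fed ad libitum (CD fed), control diet after a 16 h fast (CD fast), high-fat diet with 60% of calories from fat fed ad libitum (HFD fed) and high-fat diet after a 16 h fast (HFD fast), with 4 mice and 1 library per mouse in each. No group carried a transgene or a drug. The question that the comparisons address is whether the genes of the splicing machinery respond to feeding state and diet in liver.

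The spliceosome removes introns from pre-mRNA and is built anew on each intron from small nuclear ribonucleoproteins (snRNPs), particles made of a short RNA and a set of proteins. U1 recognises the 5′ splice site, U2 the branch point with the help of the U2 auxiliary factor at the 3′ splice site, and the U4/U6.U5 tri-snRNP then joins and is rearranged into the catalytic form. The Sm proteins form a ring around the RNA of U1, U2, U4 and U5, and the LSm2 to LSm8 proteins form the related ring on U6, so these rings are shared parts, and many of the other proteins are known mainly from a single particle. The liver uses this machinery in every cell, and because whole tissue was sequenced, fewer cells of a type and less RNA per cell cannot be told apart in any value below.

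The members were placed by the particle their proteins are known from: 6 with U1, 14 with U2, 10 with U4/U6.U5 and 15 with the Sm and LSm rings (Sm/LSm). The remaining 6 were Prpf19, Prpf4b, Prpf38b and 3 proteins of the minor spliceosome (Snrnp25, Snrnp35 and Snrnp48), described apart. Library totals ran from 41364448 to 57583153 counts and were highest in CD fed (at least 55415835) and between 41364448 and 53982285 elsewhere. The members together took 0.153% to 0.175% of each library. Hepatocyte markers (7 of 7 in the table) summed to 71245 CPM (counts per 1000000, scaled between libraries by TMM) in the lowest library and 138447 CPM in the highest, so the defining markers of liver were abundant in every library.

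Levels were compared between genes per kilobase of exon (RPKM, from the TMM-scaled counts and the merged exon length of each gene). The highest of all was Prpf8, the large U5 scaffold at the heart of the catalytic centre, with a mean of 36.8 RPKM over the 16 libraries, and the lowest was Lsm8, the subunit that marks the U6 ring, with 0.938 RPKM. Within the U1 genes Snrnp70, which binds the U1 RNA, was highest (8.41 RPKM) and Prpf39, a U1-associated protein, lowest (1.47 RPKM). Within the U2 genes Sf3b2, a subunit of the SF3b complex that grips the branch point, was highest (16.6 RPKM) and Snrpb2, the U2 B″ protein, lowest (2.85 RPKM). Prpf38a, which joins with the tri-snRNP, was lowest of its set at 1.59 RPKM. Snrpb, the gene of the Sm B proteins, led the rings with 21.5 RPKM. The median gene of each set lay close together, at 3.71 RPKM for U1, 6.18 for U2, 4.29 for U4/U6.U5 and 4.49 for Sm/LSm. With the length of the principal transcript in place of merged exons, the highest gene of each set was the same, but the lowest became Sf3b5 in U2, Prpf4 in U4/U6.U5 and Snrpn in Sm/LSm. The top of the whole order changed too, with Prpf19 at 51.6 RPKM and Snrnp70 at 36.94 RPKM above Prpf8 at 36.88 RPKM, so both ends of this order depend on the length used.

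**Figure D1:**
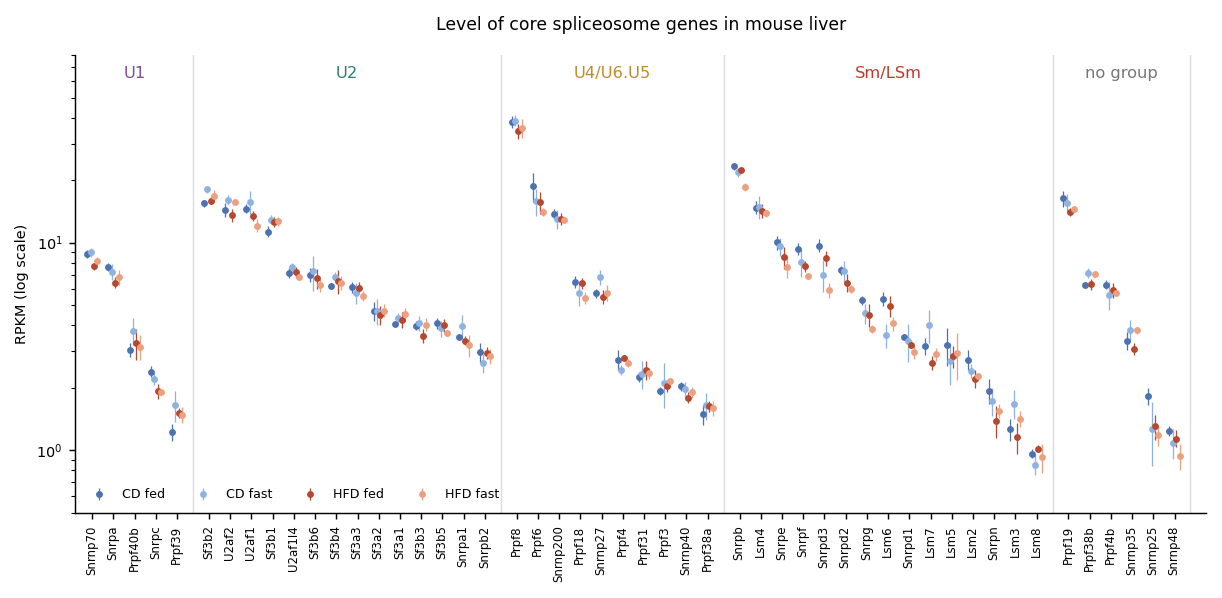
The level of 50 of the 51 genes as mean RPKM on a log scale, with bars of 1 SD over the 4 mice of each group, ordered within each particle. Prpf8 (36.8 RPKM over all libraries) and Snrpb (21.5 RPKM) stand highest, and the 4 groups of mice lie close together for most genes.

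Differences between the groups of mice were small beside this range. The spread between mice of 1 group, as the coefficient of variation of a gene's CPM, had a median over the members of 6.43% for CD fed mice, 11.7% for CD fast mice, 7.47% for HFD fed mice and 6.55% for HFD fast mice. A total of 10 of the 51 genes passed edgeR's quasi-likelihood test (Benjamini-Hochberg adjusted p under 0.05, adjusted over all 15075 genes) in at least 1 of 4 pairwise comparisons, and no member passed the test of the diet by fasting interaction. The matching share of all genes tested was not counted. It cannot be below 25.2%, the share that passed when fed and fasted mice on the control diet were compared. The members' share, 10 of 51, was lower than this. The largest log2 fold change of any member in the 4 pairwise comparisons was -0.58, for Lsm6 with fasting in CD.

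Fasting on the control diet changed 6 of the 51 members, 11.8%, where 25.2% of all genes tested changed. Of these, 4 rose (13.7% of all genes rose) and 2 fell (11.5% of all genes fell). In this fit the 2 that fell, Snrpd3 and Lsm6, are ring proteins, and the 4 that rose, Prpf39, Sf3b2, Snrnp27 and Prpf38b, are not. The share of members called was thus below the background of the same comparison. Scaled by total counts, 2 were called higher and 3 lower (10.8% of all genes higher and 13.6% lower), with Prpf38b and Snrnp27 lost and Snrnp25 of the minor spliceosome, named after its values were seen, called lower. Snrnp25, which is not a ring protein, was also called lower by DESeq2, by limma-voom and with the replicate block. The same held with offsets for GC content and length, with or without the block, and without CD fast 2.

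Snrpd3 (chr10:75517551-75537381, plus strand, GRCm38) encodes Sm D3, which sits next to Sm B in the ring around the snRNA. Its CPM on the control diet was 35.6, 31.5, 35.2 and 31.0 in fed mice and 27.4, 19.2, 27.8 and 21.9 in fasted mice. On the high-fat diet it was 29.2, 31.7, 28.9 and 26.0 in fed mice and 20.7, 21.0, 21.6 and 17.9 in fasted mice. Every fasted mouse was below every fed mouse of its diet. The log2 fold change with fasting was -0.47 ± 0.11 (SE; edgeR adjusted p = 0.00637) in CD and -0.51 ± 0.11 (edgeR adjusted p = 0.0116) in HFD, the only member called in both. Both calls held in each of the 16 fits that left out 1 library and in the 11 other alternatives. Of its 3442 exonic bases 232 lie over an exon of Gucd1 on the other strand, where reads of the genes cannot be told apart if strand was not used in counting.

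Lsm6 (chr8:78804865-78821140, minus strand) encodes a subunit of the U6 ring. Its CPM was 24.5, 20.8, 21.2 and 20.9 in CD fed and 15.3, 13.1, 17.1 and 13.1 in CD fast, with means of 21.9 and 14.6 CPM and no overlap. The log2 fold change was -0.58 ± 0.10 (edgeR adjusted p = 0.00105), the member with the smallest p in this comparison. In HFD the values were 20.7, 23.2, 18.4 and 18.3 CPM fed and 14.9, 17.7, 17.4 and 16.5 CPM fasted, again with no overlap, and the log2 fold change was -0.27 ± 0.10 (edgeR adjusted p = 0.107), which did not pass. The interaction, 0.30 ± 0.14 on the log2 scale, did not pass either (edgeR adjusted p = 0.257).

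Prpf39 (chr12:65036333-65063386, plus strand) encodes a U1-associated protein. Its CPM was 16.0, 13.4, 15.5 and 13.6 in CD fed and 23.3, 15.3, 19.8 and 20.3 in CD fast, with the lowest fasted mouse under the highest fed mice. The log2 fold change was 0.43 ± 0.11 (edgeR adjusted p = 0.00997). On HFD the fed mice had 18.8, 19.0, 17.8 and 16.8 CPM and the fasted mice 17.7, 16.0, 17.5 and 19.95 CPM, a log2 fold change of -0.03 ± 0.11 (edgeR adjusted p = 0.901). Its interaction was the strongest of the members by p, at -0.46 ± 0.15 on the log2 scale, with an unadjusted p of 0.00924 and an edgeR adjusted p of 0.118. It passed only where offsets for GC content and length were added, alone or with the replicate block, or where CD fast 2, the low mouse, was left out. Of its 11967 exonic bases 599 lie over an exon of Fkbp3 on the other strand.

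The other 3 that rose did so by small amounts. Sf3b2 (chr19:5273932-5295455, minus strand) was at 108, 110, 99.98 and 106 CPM in CD fed and 123, 131, 121 and 118 CPM in CD fast, without overlap (log2 fold change 0.22 ± 0.06, edgeR adjusted p = 0.019). Snrnp27 (chr6:86675151-86684522, minus strand), a small tri-snRNP protein, was at 11.1, 9.92, 10.3 and 10.6 CPM in CD fed and 13.96, 12.05, 12.4 and 11.7 CPM in CD fast (0.26 ± 0.08, edgeR adjusted p = 0.0338). Prpf38b (chr3:108902805-108911727, minus strand), a relative of Prpf38a, was at 43.4, 45.5, 42.8 and 42.3 CPM in CD fed and 52.2, 51.9, 46.2 and 48.4 CPM in CD fast (0.19 ± 0.06, edgeR adjusted p = 0.0257). These 3 were the less settled calls: none of them passed without the count filter or when only CD fed and CD fast were fitted, and each was lost on leaving out some single libraries (CD fed 3 or CD fast 2 for Sf3b2, 5 libraries in turn for each of the other two). In HFD, Prpf38b showed the same separation, with 43.0, 41.5, 43.0 and 47.4 CPM fed and 50.2, 49.3, 49.1 and 48.4 CPM fasted (0.17 ± 0.06, edgeR adjusted p = 0.0781).

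By particle, the median log2 fold change with fasting in CD was 0.09 for the U2 genes and -0.17 for Sm/LSm, with -0.01 for U1 and -0.02 for U4/U6.U5, against -0.01 for all genes tested. Of the Sm/LSm genes 12 of 15 had a negative fold change, 2 of them called. Of the U2 genes 10 of 14 had a positive one, 1 of them called. In 6 members every fasted mouse was above every fed mouse, where 13.1% of all genes did so, and in 2 members every fasted mouse was below, where 12.3% of all genes did so. Apart from those named these were Lsm3, Prpf40b and Sf3b1, which did not pass the test. Sf3b1 was called higher by DESeq2 and limma-voom and with upper quartile scaling. It was also called with offsets for GC content and length, with or without the replicate block. Lsm3 was called higher by DESeq2, with these offsets alone, and without CD fast 3, CD fast 4 or HFD fed 1.

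**Figure D2:**
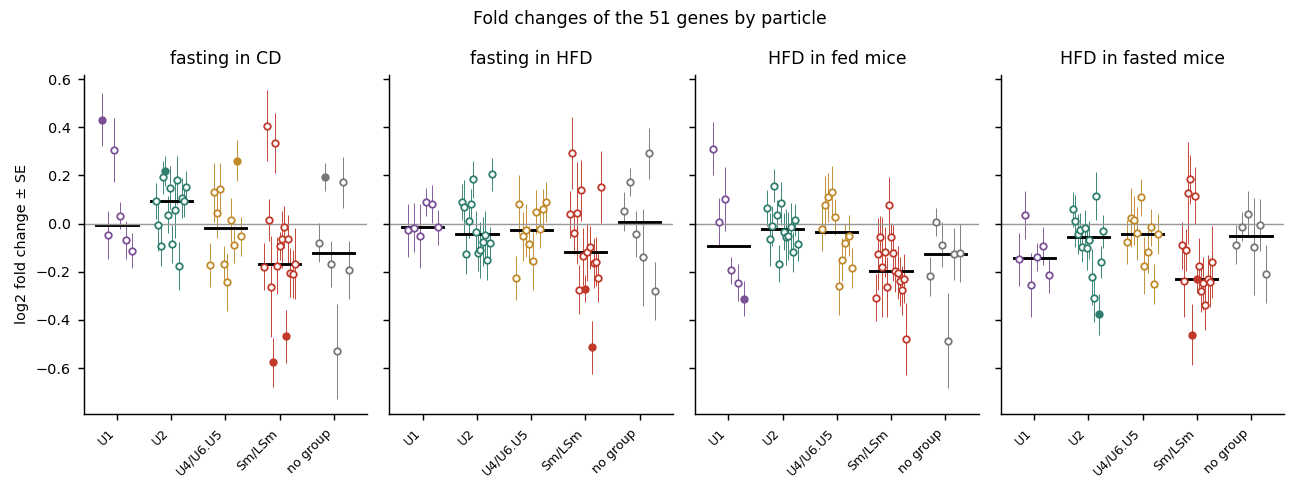
Log2 fold change of each of the 51 genes in the 4 pairwise comparisons, by particle, with bars of 1 SE; filled points passed the test and black lines are medians. The Sm/LSm median lies lowest of the sets in every panel of this fit, from -0.12 for fasting in HFD to -0.23 for HFD in fasted mice.

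Fasting on the high-fat diet changed 2 of the 51 members, 3.92%, where 8.86% of all genes changed. Both fell (4.07% of all genes fell) and none rose (4.78% of all genes rose). Scaled by total counts, the same 2 were called, where 5.93% of all genes rose and 2.85% fell, and with offsets for GC content and length 3.94% rose and 5.86% fell. They were Snrpd3, given above, and Snrpb (chr2:130171414-130179403, minus strand), which encodes the Sm B and B′ proteins. Snrpb stood at 43.2, 46.3, 44.6 and 43.2 CPM in HFD fed and 38.9, 37.0, 35.8 and 35.4 CPM in HFD fast. The groups did not overlap, and the log2 fold change was -0.27 ± 0.06 (edgeR adjusted p = 0.0105). In CD it was at 47.9, 47.7, 44.4 and 44.2 CPM fed and 42.6, 42.9, 46.0 and 41.1 CPM fasted, where the groups overlapped and the log2 fold change of -0.09 ± 0.06 did not pass (edgeR adjusted p = 0.246). The difference between these effects, the interaction, was -0.18 ± 0.08 on the log2 scale and did not pass (edgeR adjusted p = 0.235).

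The median of Sm/LSm was -0.12 here and 10 of its 15 genes had a negative fold change. The other medians were -0.02 for U1, -0.04 for U2 and -0.02 for U4/U6.U5, beside 0.01 for all genes. In 5 members every fasted mouse was below every fed mouse, where 8.66% of all genes did so. Of these 5, Snrpd3, Snrpb, Lsm6 and Snrpf are ring genes and Prpf18, which acts at the second catalytic step, is not. Of the 861 exonic bases of Snrpf 567 lie over exons of Ccdc38 and 168 over exons of 4933408J17Rik, both on the other strand, and 78.3% of its 100-base windows also occur in transcripts annotated to other genes on either strand, so its values are uncertain if strand was not used in counting. In 3 members every fasted mouse was above, where 8.02% of all genes did so. These were Prpf38b, U2af2, the large subunit of the U2 auxiliary factor, and Snrnp35 of the minor spliceosome. DESeq2 called Prpf38b and U2af2 higher, and edgeR called Prpf38b higher without HFD fed 4.

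**Figure D3:**
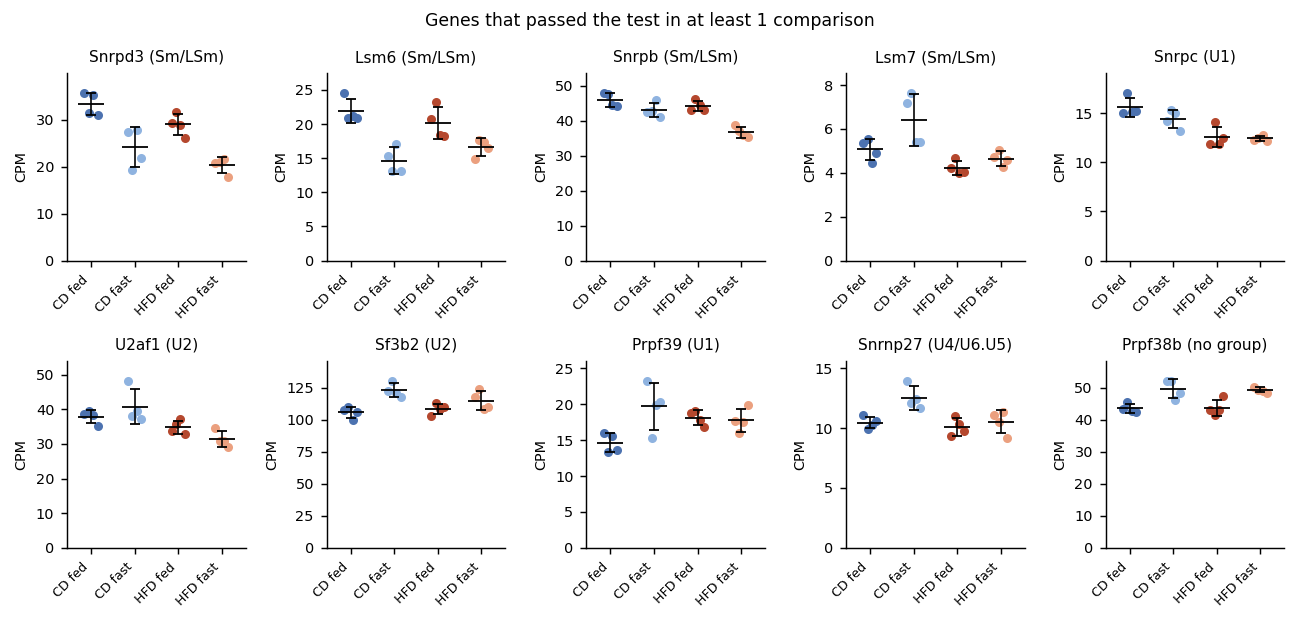
CPM of the 10 genes that passed the test in at least 1 comparison, 1 point per mouse, with the mean and SD of the 4 mice of each group; axes begin at 0. Snrpd3 and Lsm6 lie lower in fasted mice on both diets, and Snrpb is lowest in HFD fast (35.4 to 38.9 CPM).

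Between diets in fed mice, 1 of the 51 members passed the test, 1.96%, where 7.50% of all genes did. It fell (4.22% of all genes fell), and no member rose (3.28% of all genes rose). Scaled by total counts, no member passed, where 6.08% of all genes rose and 2.75% fell. Snrpc (chr17:27838150-27851968, plus strand) encodes U1 C, which contacts the 5′ splice site helix. Its CPM was 15.02, 17.0, 15.1 and 15.3 in CD fed and 11.9, 14.1, 11.8 and 12.5 in HFD fed, a log2 fold change of -0.31 ± 0.07 (edgeR adjusted p = 0.0183). Every HFD fed mouse was below every CD fed mouse. In fasted mice it was at 14.1, 15.3, 15.003 and 13.2 CPM on CD and 12.3, 12.5, 12.8 and 12.1 CPM on HFD, also without overlap, and the log2 fold change of -0.21 ± 0.07 did not pass (edgeR adjusted p = 0.0823). The fed call was lost without CD fed 2, whose 17.0 CPM was the highest (edgeR adjusted p = 0.0705), without HFD fed 1 (0.0545) and without HFD fed 3 (0.0664), with scaling by total counts (0.0698) and when only CD fed and HFD fed were fitted (0.0508).

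The other specific proteins of U1 had the sign of Snrpc but did not pass the test. Snrnp70 was at 67.5, 71.0, 63.8 and 65.7 CPM in CD fed and 56.7, 61.2, 57.3 and 59.0 CPM in HFD fed, without overlap (log2 fold change -0.19 ± 0.06, edgeR adjusted p = 0.0514). Snrpa, which encodes U1 A, gave -0.24 on the log2 scale (edgeR adjusted p = 0.068), and its groups did not overlap either. DESeq2 called both Snrnp70 and Snrpa lower. Snrpa was also called with the replicate block, with or without offsets for GC content and length, and Snrnp70 without CD fast 1. The U1-associated Prpf39 had the opposite sign, 0.31 ± 0.11 (edgeR adjusted p = 0.0956), and every HFD fed mouse was above every CD fed mouse. The U1 median of -0.09 therefore mixes 3 negative and 3 positive fold changes. In 6 members every HFD fed mouse was below every CD fed mouse, where 8.51% of all genes did so, and in 2 members above, where 7.22% of all genes did so.

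In fasted mice, 3 of the 51 members differed between diets, 5.88%, where 7.70% of all genes did. All 3 were lower on HFD (4.65% of all genes were lower) and none higher (3.05% of all genes were higher). U2af1 (chr17:31647081-31658892, minus strand) encodes the small subunit of the U2 auxiliary factor, which reads the AG at the end of the intron. It stood at 48.3, 38.0, 39.6 and 37.2 CPM in CD fast and 34.6, 30.8, 30.9 and 29.2 CPM in HFD fast. The groups did not overlap, with CD fast 1 well above the other fasted mice, and the log2 fold change was -0.38 ± 0.08 (edgeR adjusted p = 0.015). Without CD fast 1 the call held, as it did without any other single library. In fed mice U2af1 was at 38.5, 39.4, 38.2 and 35.2 CPM on CD and 33.7, 35.6, 37.1 and 32.9 CPM on HFD (-0.12 ± 0.08, edgeR adjusted p = 0.427).

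Snrpb was the second, at -0.23 ± 0.06 on the log2 scale (edgeR adjusted p = 0.0242), with every HFD fast mouse below every CD fast mouse in the values given above. This call was lost without CD fast 3 (edgeR adjusted p = 0.0626), HFD fast 3 (0.0717) or HFD fast 4 (0.0740), with upper quartile scaling (0.0525) or total count scaling (0.403), without the count filter (0.0674) and when only the fasted groups were fitted (0.101). The third was Lsm7 (chr10:80852821-80855209, minus strand), a subunit of the U6 ring, with 7.19, 7.62, 5.39 and 5.42 CPM in CD fast and 4.71, 5.05, 4.26 and 4.58 CPM in HFD fast (-0.46 ± 0.13, edgeR adjusted p = 0.0355). CD fast 1 and 2 were the high mice. The call was lost without CD fast 1 (-0.40, edgeR adjusted p = 0.0931) or CD fast 2 (-0.37, 0.0961), and also without HFD fast 1, 3 or 4. It was lost with upper quartile scaling (edgeR adjusted p = 0.0578) or total count scaling (0.119) too. The same held without the count filter (0.0581) and when only the fasted groups were fitted (0.114). In fed mice Lsm7 was at 5.38, 5.55, 4.46 and 4.89 CPM on CD and 4.21, 4.66, 3.98 and 4.05 CPM on HFD (-0.26 ± 0.13, edgeR adjusted p = 0.227).

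How far these diet differences reach depended on the scaling between libraries. With TMM, 40 of the 51 members had a negative fold change for HFD in fasted mice and the medians were -0.23 for Sm/LSm, -0.14 for U1, -0.06 for U2 and -0.04 for U4/U6.U5, beside 0.01 for all genes. Scaled by total counts, the median of all genes moved to 0.17 and these medians to -0.07, 0.02, 0.10 and 0.12, so that 3 of the 4 sets changed sign while each stayed below all genes. The 3 calls were then lost and Lsm6 and Prpf4 were called higher in their place, where 12.3% of all genes were higher and 1.66% lower. Fitted on CD fast and HFD fast alone, no member passed, and only 0.623% of all genes did. With offsets for GC content and length, 9 members passed, all lower, the 3 above among them. This is 17.6% of the members, where 10.9% of all genes passed in that fit (2.799% higher and 8.07% lower). In 10 members every HFD fast mouse was below every CD fast mouse, where 7.45% of all genes did so, and in 0 members above, where 6.55% of all genes did so. Of these 10, 6 were ring genes (Lsm7, Snrpb, Snrpd2, Snrpe, Snrpf and Snrpg).

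**Figure D4:**
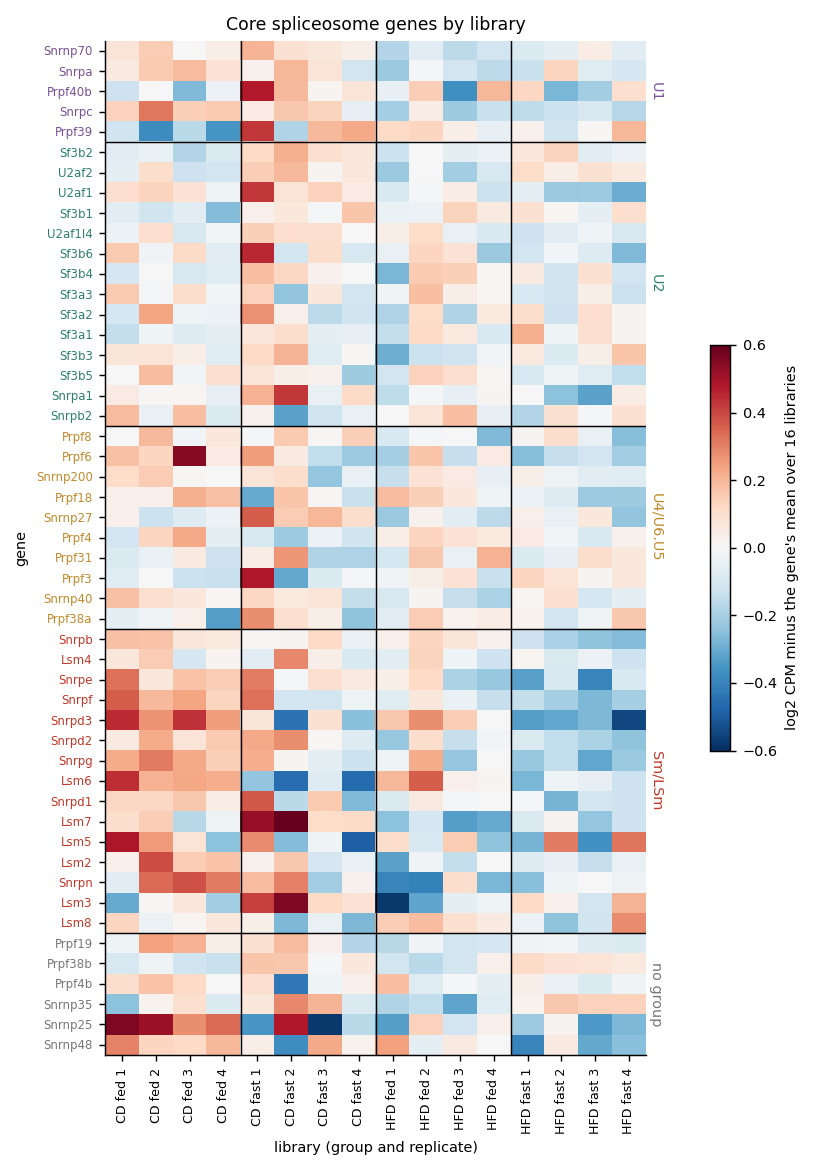
Log2 CPM of 50 of the 51 genes in each library minus the gene's mean over the 16 libraries, with genes grouped by particle and libraries by group. Among the Sm/LSm rows the CD fed libraries are mostly above the mean and the HFD fast libraries mostly below it, as the values of Snrpd3 and Snrpb in the text show.

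No member passed the interaction of diet and fasting, where 2.59% of all genes did. By edgeR 3 members had an unadjusted p under 0.05 (Snrpb, Prpf39 and U2af1), 5.88% where 20.2% of all genes had one, and DESeq2 and limma-voom called 0, where they called 7.16% and 2.37% of all genes.

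The differences between sets of members within a library do not depend on scaling between libraries, so they were computed as the mean log2 CPM of 1 set minus that of another. They are descriptions, and the set of 7 Sm ring genes (Snrpb, Snrpd1, Snrpd2, Snrpd3, Snrpe, Snrpf and Snrpg) was singled out after its values were seen. Relative to the 14 U2 genes, the 7 Sm genes stood at -0.70 ± 0.03 (SD, n = 4) in fed and -0.93 ± 0.09 in fasted mice on the control diet, and at -0.87 ± 0.07 in fed and -1.08 ± 0.04 in fasted mice on the high-fat diet. The CD fed libraries lay between -0.74 and -0.66, above all 12 others, and the HFD fast libraries between -1.12 and -1.03, below all 12 others, while CD fast (-1.01 to -0.84) and HFD fed (-0.96 to -0.80) overlapped. This separation holds for U2 as the reference. Relative to U1, HFD fast 2 had a narrower gap than CD fast 4, so these groups overlapped. The Sm and U1 means were 3.549 and 4.552 in HFD fast 2 and 3.639 and 4.649 in CD fast 4. All 7 had a negative fold change in each of the 4 pairwise comparisons, which share groups of mice, under TMM and the other scalings, except Snrpb at 0.02 for HFD in fed mice with total count scaling. For fasting in CD the sign was less settled, with 6 of the 7 negative without CD fed 2 or CD fast 3 and 5 without CD fast 4. The calls among them were Snrpd3 and Snrpb. Snrpf was then left out, an alternative chosen after seeing the data. Relative to U2, the remaining genes stood at -0.54 ± 0.03 and -0.76 ± 0.09 in fed and fasted mice on the control diet. On the high-fat diet they stood at -0.70 ± 0.08 and -0.92 ± 0.04. Against U2, the CD fed libraries still lay above and the HFD fast libraries below all others. The whole Sm/LSm set separated less clearly. Relative to U2, the CD fed libraries (-1.394 to -1.376) lay above all others. HFD fast (-1.699 to -1.579) overlapped with CD fast (-1.650 to -1.531) and HFD fed (-1.584 to -1.507). Relative to U4/U6.U5, CD fed (-1.486 to -1.374) overlapped with CD fast (-1.568 to -1.471) as well. CD fed, the group with the smallest gap, also had the largest library totals, and the part of depth in this was not tested.

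The U6 ring did not follow the same order. LSm2 to LSm8 relative to U2 stood at -1.91 ± 0.04 and -2.04 ± 0.08 in fed and fasted mice on the control diet and at -2.03 ± 0.03 and -2.02 ± 0.11 on the high-fat diet. The HFD fast libraries (-2.12 to -1.91) overlapped with every other group, CD fed (-1.95 to -1.88) included. Within it Lsm6 fell and Lsm7 and Lsm3 had positive fold changes with fasting in CD (0.34 for Lsm7, edgeR adjusted p = 0.0595). In that comparison Lsm7 was called higher by DESeq2 and with the replicate block, with or without offsets for GC content and length. It was also called higher without CD fast 3 or CD fast 4. The U4/U6.U5 genes relative to U2 stayed between -0.08 and 0.09 in all 16 libraries, and U1 relative to U2 between -0.15 and 0.07.

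**Figure D5:**
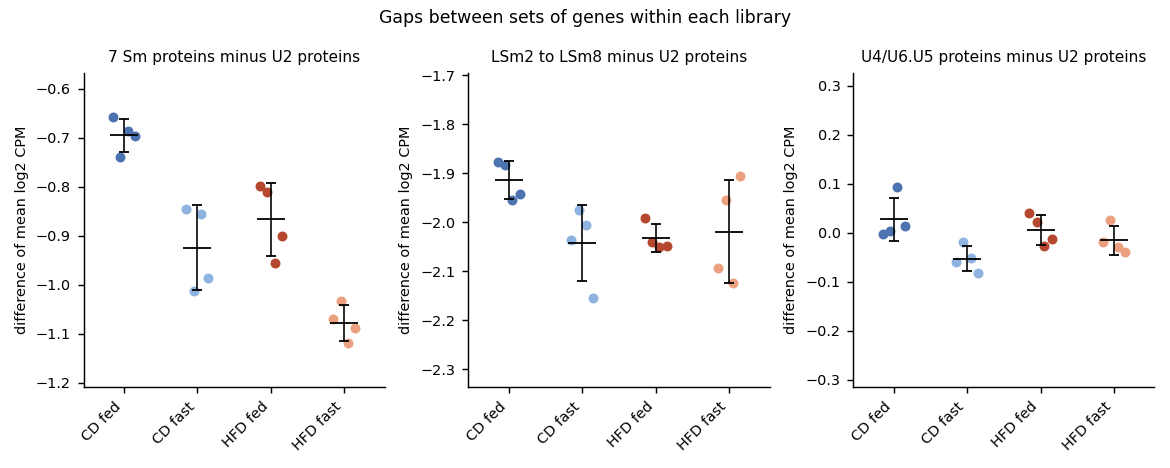
Mean log2 CPM of the 7 Sm genes, of LSm2 to LSm8 and of the U4/U6.U5 genes, each minus that of the 14 U2 genes, 1 point per library with the mean and SD of each group. All axes span the same 0.64 units. The Sm gap is smallest in CD fed (-0.70) and widest in HFD fast (-1.08), and the U4/U6.U5 gap stays near 0.

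Offsets for the GC content and length of genes kept the sign of the Sm/LSm medians, at -0.11 for fasting in CD, -0.14 for fasting in HFD, -0.17 for HFD in fed mice and -0.22 for HFD in fasted mice. In that last comparison the U1 median was then lower, at -0.24, and U2 and U4/U6.U5 moved to -0.13 and -0.14, with all genes at -0.06. Markers of dividing cells also differed between the groups. Their summed level (5 of 5 genes in the table, none at 0 in a whole group) ranged from 9.50 to 16.1 CPM in fed and 2.66 to 4.48 CPM in fasted mice on the control diet, and from 6.74 to 17.96 CPM in fed and 3.95 to 15.8 CPM in fasted mice on the high-fat diet. Endothelial markers (6 of 6 genes, none at 0 in a whole group) ran from 228 to 258 CPM in CD fed and from 164 to 217 CPM in CD fast, and lay between 202 and 267 CPM in the HFD groups. Stellate cell markers (5 of 5 genes, none at 0 in a whole group) were likewise lower in CD fast, at 60.9 to 108 CPM, than in CD fed, at 111 to 143 CPM, and lay between 113 and 158 CPM in the HFD groups. Kupffer cell and macrophage markers (7 of 7 genes, none at 0 in a whole group) had a median of 273 CPM in CD fed and 196 CPM in CD fast, with ranges that overlapped (222 to 439 CPM and 152 to 248 CPM), and lay between 194 and 350.3 CPM in the HFD groups. Other lists followed feeding state. The sum of the adipose list (5 of 5 genes in the table) was nearly all Cidec, a lipid droplet gene, with mean CPM of 8.96 in fed and 150.3 in fasted mice on the control diet and 35.1 in fed and 148 in fasted mice on the high-fat diet, while the other 4, Adipoq and Lep included, were at most 0.976 CPM in any library. The sum of the pancreas list (5 of 5 genes) was nearly all Cela1, with mean CPM of 18.2 and 8.17 in fed and fasted mice on the control diet and 14.9 and 7.20 on the high-fat diet, and the other 4 were at most 1.501 CPM. The hepatocyte sum was lowest in HFD fast, at 71245 to 102401 CPM, against 104296 to 137736 CPM in CD fed. The part of these lists in the Sm result was not tested.

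Among the members are pairs of related genes whose products can take the same place. Snrpn (chr7:59982495-60140219, minus strand), the imprinted relative of Snrpb that is best known from brain, was at 3.35, 4.43, 4.57 and 4.36 CPM in CD fed mice and 3.99, 4.32, 3.03 and 3.57 CPM in CD fast mice. On the high-fat diet it was at 2.67, 2.65, 3.77 and 2.90 CPM in fed mice and 2.95, 3.44, 3.50 and 3.43 CPM in fasted mice, and all groups overlapped. Its mean level was 1.65 RPKM against 21.5 RPKM for Snrpb. It shares exons with Snurf on the same strand, and its largest fold change, -0.48 ± 0.15 for HFD in fed mice, did not pass (edgeR adjusted p = 0.06). In that comparison Snrpn was called lower by DESeq2, and by edgeR without CD fed 1 or without HFD fed 3.

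U2af1l4, a relative of U2af1, was at 13.2, 12.8, 12.8 and 11.9 CPM in CD fast and 10.9, 11.4, 11.7 and 11.2 CPM in HFD fast. These groups did not overlap, and the log2 fold change of -0.16 ± 0.07 did not pass (edgeR adjusted p = 0.141). Its mean level was 7.21 RPKM and that of U2af1 13.9 RPKM. Of all 100-base windows in the transcripts of U2af1, 16.3% also occur in transcripts annotated to other genes, and for U2af1l4 it was 30.3%, so reads from these windows may be set aside or shared in counting. The share was 10% for Lsm7 and under 4% for the other 8 called genes.

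Prpf40b encodes a U1-associated protein. It was at 14.9, 16.2, 13.5 and 15.8 CPM in CD fed and 22.6, 18.6, 16.4 and 17.1 CPM in CD fast, without overlap (0.30 ± 0.13, edgeR adjusted p = 0.106), and was not called in any comparison.

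The promoters of the members were read from RefSeq windows (GRCm38.p6, 250 bases before to 50 after each start), of which 42 of the 51 members had at least 1. The letters CGGAAG, the core of the sites of ETS factors, were found on either strand in 26 of the 42 members (61.9%), among 18.8% of the 27025 genes with a window and 32.8% of the 11041 tested genes with one. They were in 10 of 11 U2 genes and 5 of 12 Sm/LSm genes. The longer ETS letters CCGGAAGT, which contain CGGAAG, were in 8 of the 42 (19.0%, beside 4.31% of all genes and 8.51% of tested genes). CCAAT, bound by NF-Y, was in 17 of the 42 (40.5%, beside 41.1% and 42.7%), and CACGTG, the E-box, in 4 (9.52%, beside 8.09% and 11.3%). GCATGCGC, the site of NRF1, was in 4 (9.52%, beside 3.05% and 5.52%), and TATAAA in 4 (9.52%, beside 15.7% and 9.41%). These are matches of letters. The member windows also held more G and C, with a median of 57.7% against 52.7% in all windows.

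The stretch of 119 or 120 bases before the RefSeq start is shown for the called members for which it is clear of exons of protein-coding genes, 5′ to 3′ on the gene's strand, with any of the 6 motifs in capitals. That of Lsm6 (chr8:78821153-78821272), which fell with fasting in CD, holds none of them, though the whole window of Lsm6 holds CCAAT, as does that of Snrpd3, the other gene that fell. The stretch of Snrnp27, which rose with fasting in CD, lies over an exon of its own gene and is not shown. Those of the 3 other genes that rose, Prpf39 (chr12:65036214-65036332), Sf3b2 (chr19:5295458-5295577) and Prpf38b (chr3:108911730-108911849), hold the E-box, both CCAAT and CCGGAAGT, and both CCAAT and CGGAAG on the other strand:
Lsm6: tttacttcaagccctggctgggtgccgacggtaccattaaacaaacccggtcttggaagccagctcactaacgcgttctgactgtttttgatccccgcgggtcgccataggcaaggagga
Prpf39: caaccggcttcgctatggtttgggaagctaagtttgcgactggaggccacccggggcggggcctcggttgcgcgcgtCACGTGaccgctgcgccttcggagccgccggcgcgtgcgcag
Sf3b2: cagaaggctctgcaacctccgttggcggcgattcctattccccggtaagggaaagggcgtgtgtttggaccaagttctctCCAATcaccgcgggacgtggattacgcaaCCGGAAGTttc
Prpf38b: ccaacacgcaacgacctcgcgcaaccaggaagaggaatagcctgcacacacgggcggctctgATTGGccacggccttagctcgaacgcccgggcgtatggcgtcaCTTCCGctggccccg
No relation between these letters and the changes was tested.

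Other proteins of the splicing pathway, whose names the rule does not match, were read from 7 lists of 79 genes, of which 78 were tested. With fasting in CD 12 of the 78 changed (9 higher and 3 lower), 15.4% where 25.2% of all genes changed. Among them Sugp1 and Htatsf1, both partners of U2, rose by 0.41 ± 0.09 (edgeR adjusted p = 0.00519) and 0.31 ± 0.08 (0.00951) on the log2 scale, and Gemin2, which holds Sm proteins during assembly of the ring, rose by 0.42 ± 0.13 (0.0253). Crnkl1, a protein of the catalytic spliceosome, fell by 0.52 ± 0.08 (0.000517), more than any other gene of these lists in this comparison, and Usp39, of the tri-snRNP, fell by 0.38 ± 0.11 (0.0239).

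With fasting in HFD 3 of the 78 changed, all lower (3.85%, with 8.86% of all genes): Phf5a, a subunit of SF3b with a name outside the rule, and Cdc40 and Plrg1 of the catalytic spliceosome. With HFD in fed mice 3 changed (3.85%, with 7.50% of all genes): Gemin2 (0.64 ± 0.13, edgeR adjusted p = 0.00767) and Cd2bp2 rose and Luc7l, which binds U1, fell. With HFD in fasted mice 2 changed (2.56%, with 7.70% of all genes): Tia1, a U1 recruiter, was higher by 0.39 ± 0.09 (edgeR adjusted p = 0.0174), and Phf5a was lower by 0.26 ± 0.07 (0.0326). No gene of these lists passed the interaction by edgeR, where 2.59% of all genes did. By the same test 10 of the 78 had an unadjusted p under 0.05, where 20.2% of all genes had one. In each pairwise comparison of this fit the share of these genes that changed, like that of the members, was below the share of all genes. For the members this turned for HFD in fasted mice with DESeq2, where 15.7% of the members and 13.0% of all genes were called, as with the offsets given above.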

How the data were processed

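Whole-liver poly(A) RNA from 16 mice was sequenced as 100-base paired reads (NEBNext Ultra II). According to the submitters' notes the authors used CASAVA 1.8.4, TopHat2 2.0.11 and featureCounts on GRCm38, and deposited raw counts per Ensembl gene. The strand setting of the counting is not given in the sources used here. All columns of the table were used.

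Symbols, exon lengths and coordinates came from GENCODE vM21 (45229 of 46078 genes matched). The counts were tested with edgeR 4.0.16 (quasi-likelihood test, filterByExpr, TMM, 1 coefficient for each group, all 16 libraries in 1 fit with 12 residual degrees of freedom, Benjamini-Hochberg adjustment over 15075 genes, threshold 0.05) in R 4.3.3. CPM and RPKM are TMM-scaled; for means over sets of genes log2 CPM used a prior count of 2. A count of 3 is 0.0547 CPM in CD fed 1, far under any member's level. Alternatives were DESeq2 1.42.0, limma-voom (limma 3.58.1), 3 other scalings, other count filters, thresholds of 0.01 and 0.1, only the groups compared, offsets for GC content and length, the replicate block and leaving out each library. Single p-values rest on the spread between mice within groups, pooled over all 4 groups of 4 mice. Where only the groups compared were fitted, the spread came from those groups alone.

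Members named with values were those called in any comparison, the highest and lowest RPKM of each particle, and pairs of paralogues; others appear by name where libraries did not overlap. The members and lists were chosen with earlier results of these data known. No duplicate libraries were found. 1 member enters all counts and medians but is not reported here by name. Protein sequences were not used here.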

Additional observations from a re-analysis of the deposited data

Results flagged for a closer look

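In 76 sets of 4 libraries (19 named genes in 4 groups), 4 held a library far from the other 3 by Dixon's ratio of gap to range (highest or lowest library against the rest), beyond the critical value for 4 samples. Chance alone marks about 1 in 20 such sets. Lsm6 was at 24.5 CPM in CD fed 1 and between 20.8 and 21.2 CPM in the other 3 (ratio 0.904). Snrpc was at 17.0 CPM in CD fed 2 and between 15.02 and 15.3 CPM in the other 3 (0.881). Snrpn was at 2.95 CPM in HFD fast 1 and between 3.43 and 3.50 CPM in the other 3 (0.877). Snrnp70 was at 65.9 CPM in HFD fast 3 and between 60.5 and 61.4 CPM in the other 3 (0.832). The call of Lsm6 with fasting in CD held without CD fed 1, and that of Snrpc with HFD in fed mice was lost without CD fed 2.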

How the results depend on the processing

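The rule found 51 members with a limit of 10 or of 50 mean counts. With fasting in CD 6 members were called, and 10 by DESeq2, 3 without a count filter, 3 when only the groups compared were fitted, 3 at a threshold of 0.01 and 10 at 0.1; Lsm6, Snrpd3 and Prpf39 were called in each of these fits at 0.05. With fasting in HFD 2 were called, and 4 by DESeq2, 0 at 0.01 and 5 at 0.1. With HFD in fed mice 1 was called, and 5 by DESeq2, 0 with total count scaling, 3 with the replicate block, 3 with the block and GC and length offsets, 0 at 0.01 and 6 at 0.1; only Prpf39 was called when only the groups compared were fitted. With HFD in fasted mice 3 were called, and 8 by DESeq2, 1 with upper quartile scaling, 1 without a count filter, 0 when only the groups compared were fitted, 9 with GC and length offsets, 11 with the block and offsets, 0 at 0.01 and 8 at 0.1. The interaction called 0, and 1 (Prpf39) with GC and length offsets with or without the block. The share of all genes called moved as well: for HFD in fasted mice it was 7.70%, and 13.0% by DESeq2, 6.95% with upper quartile scaling, 3.39% without a count filter, 0.623% with only the groups compared, 10.9% with offsets, 12.3% with the block and offsets, 1.44% at 0.01 and 14.9% at 0.1. The members' share was above that of all genes there by DESeq2, with offsets with or without the block, at 0.1 and without CD fast 4, for fasting in HFD without a count filter and without HFD fed 1, and for the interaction without CD fast 2 (1.96% against 1.52%). In the other comparisons the share of all genes, in the order of the settings above, was 25.2% for fasting in CD, then 28.3%, 12.3%, 21.3%, 12.3% and 33.6%; 8.86% for fasting in HFD, then 13.2%, 2.20% and 14.9%; 7.50% for HFD in fed mice, then 11.7%, 8.83%, 8.01%, 7.72%, 2.24% and 13.1%, with 7.66% for only the groups compared; and 2.59% for the interaction, then 4.07% with offsets and 4.34% with the block and offsets. The cause of these changes was not tested. Leaving out 1 library at a time gave 3 to 8, 2 to 3, 0 to 3, 1 to 4 and 0 to 1 calls in the same order, where it gave 18.7% to 26.0%, 3.31% to 10.02%, 3.37% to 8.29%, 3.51% to 8.90% and 0.963% to 3.01% of all genes; 3 came without CD fed 3, 0 without CD fed 2 or HFD fed 1, and 1 for HFD in fasted mice without HFD fast 3 or 4. No called fold change turned its sign under any alternative; of the 7 Sm ring genes, 6 were negative for fasting in CD without CD fed 2 or CD fast 3 and 5 without CD fast 4. Labels gave the same replicate numbers to all groups and do not say whether the numbers pair the mice. Deviations from the group mean correlated above 0.1 in 8 of 24 same-number pairs (-0.24 to 0.66). The highest was HFD fed 4 with HFD fast 4, and the highest among different numbers was 0.39 (CD fed 1 with HFD fed 4). By best match, 5 of 16 libraries fell with their own number. These correlations cannot decide whether mice of the same number shared a batch. The replicate block gave 8 calls for fasting in CD (26.2% of all genes) and left the counts of fasting in HFD (2, with 9.55%), HFD in fasted mice (3, with 8.56%) and the interaction (0, with 2.38%) as they were. With 41364448 to 57583153 counts a library, the members' mean raw counts ran from 70.6 (Snrnp25) to 13224 (Prpf8).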
